A study of Mus musculus with 7 samples.

Results

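Stage 1 natural killer T (NKT) cells sorted from the thymus were compared with conventional CD4 single-positive (CD4SP) thymocytes by microarray. The comparison used 4 of the 7 arrays of the series: the 2 whose titles name stage 1 NKT cells of Valpha14 transgenic mice and the 2 whose titles name CD4SP cells of wild-type mice. All 4 samples came from the thymus of pooled C57BL/6J-background mice, 4 to 6 weeks of age. Stage 1 NKT cells were sorted as CD1d tetramer positive, CD24 low, CD44 negative and NK1.1 negative, and CD4SP cells as CD4 positive and CD8 negative. For the CD4SP samples 1 label repeats the NKT sort, and the titles, source names and descriptions were followed. The remaining 3 arrays, of PLZF-deficient Luxoid mice, were not used. Because only the NKT cells carried the Valpha14 T cell receptor transgene, transgene and cell type cannot be told apart in any difference given here.

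NKT cells are T cells with a semi-invariant receptor, in the mouse built on the Valpha14 chain, that recognises lipids presented by CD1d. They are selected in the thymus from CD4 CD8 double-positive thymocytes and leave the conventional path under the transcription factor PLZF, encoded by Zbtb16, which is known to be needed for their innate-like behaviour: fast cytokine release, residence in tissue and early expansion. Stage 1 is an early, proliferating and interleukin-4-competent step that precedes the CD44-positive and NK1.1-positive stages. CD4SP thymocytes, in contrast, mature towards naive helper T cells that leave the thymus and recirculate.

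Each gene was represented by its brightest probe set among those with 1 gene symbol, and intensities below are the deposited values, with stage 1 NKT array 1 and array 2 before CD4SP array 1 and array 2. A gene was tested where that probe set reached an intensity of 82.8, the median of all values, in at least 2 arrays, which 10594 of 18193 genes did. A gene is called higher or lower where limma gave a Benjamini-Hochberg adjusted p under 0.05, and log2 differences are stage 1 NKT minus CD4SP, ± standard error with n = 2 arrays a group. Where both arrays of the dimmer group were under 82.8, the fold is a lower limit, the geometric mean of the brighter group over 82.8. In these bulk samples fewer cells of a type and less RNA per cell cannot be told apart.

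Of the genes tested, 1285 (12.1%) were higher and 507 (4.79%) lower in stage 1 NKT cells, together 16.9%, and the median log2 difference over all genes was 0.07. The change was at least 2-fold for 585 higher and 191 lower genes and at least 8-fold for 55 higher and 8 lower ones. All 1792 called genes had groups that did not overlap, as did 60.3% of all genes tested, so a lack of overlap alone is the usual state here. Log2 values correlated at 0.992 and 0.991 within the groups and at 0.972 to 0.977 between them. With 1 array left out and 1 residual degree of freedom, the calls fell to 97 and 95 without stage 1 NKT array 1 or 2 and to 0 without either CD4SP array, where 2403 and 2303 genes still had an unadjusted p under 0.05 in limma. Because the groups of every called gene did not overlap, leaving out 1 array could not change the sign of a called gene, and none changed. Transcripts of the sex chromosomes differed between the pools: Kdm5d, a Y-linked gene, read 37.8 and 347 in NKT and 35.04 and 530 in CD4SP, low in array 1 and high in array 2 of each group, and Xist, the X-inactivation RNA, read 5644 and 3888 in NKT and 6723 and 29.01 in CD4SP.

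The genes of the sort served as a check of the labels and are no finding. Cd24a, the surface protein lost as thymocytes mature, read 14.2 and 14.1 in NKT and 246 and 239 in CD4SP, so both NKT arrays were dim as the gate asks. Cd4, the coreceptor, read 1888 and 2232 in NKT and 5824 and 6754 in CD4SP and was present in both groups (log2 difference -1.61 ± 0.17, adjusted p = 0.0014). Cd8a read 82.3 and 93.6 in NKT and 135 and 148 in CD4SP and Cd8b1 61.9 and 67.6 in NKT and 223 and 268 in CD4SP, so the coreceptor absent from the CD4SP gate was the higher one in CD4SP (0.0274 and 0.000611 as adjusted p). Cd44, whose protein was gated negative only for NKT cells, read 310.2 and 179.8 in NKT and 233 and 206 in CD4SP, and these groups overlapped (adjusted p = 0.803). The T cell receptor complex genes Cd3d and Cd3e were bright in all 4 arrays, with Cd3d at 6200 and 5704 in NKT and 5578 and 5850.5 in CD4SP.

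Among the 15 largest called differences in each direction, those higher in stage 1 NKT cells ranged from 4.05 for Tgfb3, a transforming growth factor, to 6.22 for Trgv4, and those lower from -2.71 for Bach2 to -4.10 for Cd24a. Zbtb16 was among them. Niban1, a stress-responsive cytoplasmic protein, read 3218 and 2757 in NKT and 98.4 and 107 in CD4SP, 29.04-fold higher (log2 difference 4.86 ± 0.16, adjusted p = 3.28e-05). Plac8, a small cysteine-rich protein of lymphocytes, read 4151 and 3599 in NKT and 134 and 153 in CD4SP, 26.9-fold higher (log2 difference 4.75 ± 0.16, adjusted p = 3.28e-05). The secreted growth factor gene Igf2 was near 30 in both CD4SP arrays and clearly above the filter in NKT cells, with 646 and 484 in NKT and 29.6 and 30.4 in CD4SP, at least 6.75-fold higher (log2 difference 4.22 ± 0.18, adjusted p = 7.05e-05). Moxd1, a monooxygenase-like gene, read 670.4 and 611 in NKT and 16 and 28.1 in CD4SP, at least 7.73-fold higher (log2 difference 4.92 ± 0.26, adjusted p = 0.000129). Plscr1, a phospholipid scramblase, read 516 and 532 in NKT and 25.5 and 27.8 in CD4SP, at least 6.33-fold higher (log2 difference 4.3 ± 0.15, adjusted p = 3.28e-05). Tgfb3 read 397 and 331 in NKT and 24.3 and 19.8 in CD4SP, at least 4.38-fold higher (log2 difference 4.05 ± 0.18, adjusted p = 7.05e-05). The uncharacterised gene Gm36723 read 1419 and 1826 in NKT and 25.5 and 26.1 in CD4SP, at least 19.4-fold higher (log2 difference 5.96 ± 0.17, adjusted p = 3.28e-05).

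On the lower side, after Cd24a, came Arhgap20, with 19.2 and 32.3 in NKT and 315 and 366 in CD4SP, at least 4.103-fold lower (log2 difference -3.77 ± 0.25, adjusted p = 0.000281). Tsc22d3, the gene of the glucocorticoid-responsive protein GILZ, read 118 and 87.6 in NKT and 1242 and 1401 in CD4SP, 12.97-fold lower (log2 difference -3.7 ± 0.19, adjusted p = 0.000111). Tmie read 269.8 and 273 in NKT and 3191 and 3666 in CD4SP, 12.6-fold lower (log2 difference -3.65 ± 0.15, adjusted p = 6.49e-05). These 3 genes were each far above the filter in CD4SP, and Arhgap20 was under it in both NKT arrays. Sfrp2, a secreted Wnt antagonist, read 13.3 and 11.6 in NKT and 88.5 and 170 in CD4SP, at least 1.48-fold lower (log2 difference -3.3 ± 0.30, adjusted p = 0.000765). Dntt, the terminal transferase that adds bases at receptor joints in immature thymocytes, read 73.7 and 46.4 in NKT and 461 and 527 in CD4SP, at least 5.96-fold lower (log2 difference -3.08 ± 0.24, adjusted p = 0.000433). Gramd3, Tdrp, Als2cl and F13a1 completed the list with log2 differences of -2.9 ± 0.16, -2.89 ± 0.14, -2.83 ± 0.25 and -2.79 ± 0.22, and the others are described with their groups.

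**Figure D1:**
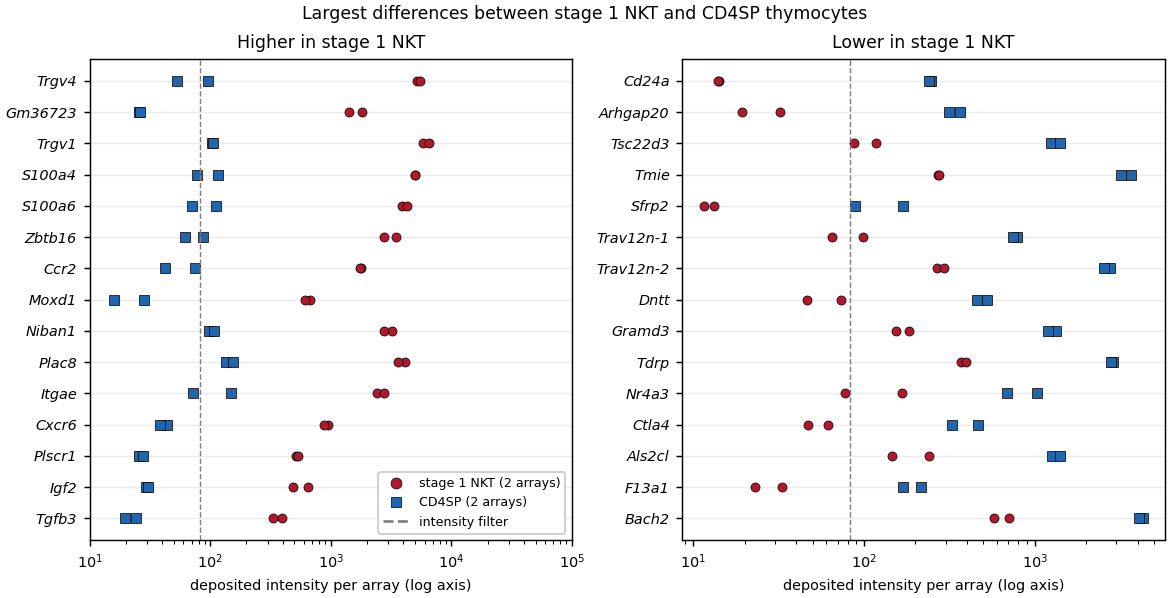
Deposited intensity (log axis) of the 15 genes with the largest called difference in each direction; red circles are the 2 stage 1 NKT arrays, blue squares the 2 CD4SP arrays, and the dashed line is the filter of 82.8. The replicates of a group lie close together against the gap between the groups, and for most higher genes at least 1 CD4SP array sits under the filter.

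S100a4 and S100a6, nearby genes for small calcium-binding proteins linked to cell motility, stood just below the gamma chain segments and Gm36723. S100a4 read 5023 and 4989.8 in NKT and 77.5 and 117 in CD4SP, 52.7-fold higher (log2 difference 5.72 ± 0.21, adjusted p = 4.68e-05). S100a6 read 3881 and 4269 in NKT and 70.4 and 112 in CD4SP, 45.8-fold higher (log2 difference 5.52 ± 0.23, adjusted p = 6.83e-05). The 250 bases before and 50 after the start of each gene, from RefSeq on GRCm38.p6, are shown. They were chosen because the 2 genes lie near each other on chromosome 3 and differed by nearly the same amount. The S100a4 window is chr3:90603520-90603819 on the plus strand and the S100a6 window chr3:90612644-90612943 on the plus strand, with capitals for matches, on either strand, to AGATAA or TGATAA (the GATA factor motif, in 18.6% of 32851 promoters of this length), CANNTG (the E-box bound by E proteins, in 72.3%) and GTGGGCG (the core of the Egr motif, in 7.97%).
S100a4: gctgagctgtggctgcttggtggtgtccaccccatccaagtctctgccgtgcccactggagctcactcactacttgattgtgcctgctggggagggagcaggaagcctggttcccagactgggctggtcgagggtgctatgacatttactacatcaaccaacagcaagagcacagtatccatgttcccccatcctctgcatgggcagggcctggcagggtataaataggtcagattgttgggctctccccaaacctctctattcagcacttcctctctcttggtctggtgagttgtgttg
S100a6: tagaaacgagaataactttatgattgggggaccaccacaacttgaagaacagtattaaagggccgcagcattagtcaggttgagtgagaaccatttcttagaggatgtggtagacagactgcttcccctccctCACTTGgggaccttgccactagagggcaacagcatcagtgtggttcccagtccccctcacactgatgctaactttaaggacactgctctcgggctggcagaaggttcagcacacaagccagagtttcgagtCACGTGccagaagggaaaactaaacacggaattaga
The S100a4 window held none of these letters, and the S100a6 window held 2 E-box matches. A match is a description of the letters and not a binding site.

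Every called member of the wider family was higher, but with probe sets averaged 10 of 15 tested were higher and 1 lower. Of 16 tested genes of the S100, annexin and galectin list, 11 were higher and 0 lower in stage 1 NKT cells, against 12.1% and 4.79% of all genes, with a median log2 difference of 0.91; 2 further members, S100a8 and S100a9, did not pass the filter. Lgals3, which encodes galectin-3, read 1363 and 1443 in NKT and 125 and 91.9 in CD4SP, 13.1-fold higher (log2 difference 3.71 ± 0.19, adjusted p = 0.00011). Capg, an actin-capping protein, read 2449 and 2003 in NKT and 522 and 334 in CD4SP, 5.31-fold higher (log2 difference 2.41 ± 0.24, adjusted p = 0.00115). Anxa2, the annexin that partners S100a10, read 4229 and 3096 in NKT and 439.7 and 290.3 in CD4SP, 10.1-fold higher (log2 difference 3.34 ± 0.25, adjusted p = 0.000377), with 1 of its 3 probe sets of opposite sign. Anxa1 read 117 and 95.5 in NKT and 15.1 and 22.1 in CD4SP, at least 1.28-fold higher (log2 difference 2.53 ± 0.22, adjusted p = 0.000681), with the other of its 2 probe sets of opposite sign. Anxa4 read 234 and 209 in NKT and 111 and 103 in CD4SP, 2.08-fold higher (log2 difference 1.05 ± 0.15, adjusted p = 0.00534). Anxa7 read 620.4 and 795 in NKT and 358 and 327 in CD4SP, 2.05-fold higher (log2 difference 1.04 ± 0.18, adjusted p = 0.00969). Vim, the intermediate filament vimentin, was bright in every array, at 8609 and 9010.5 in NKT and 9234 and 9277 in CD4SP (log2 difference -0.07 ± 0.14, adjusted p = 0.762).

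Zbtb16 led the transcription factors. Its brightest probe set read 2751 and 3488 in NKT and 87.3 and 61.8 in CD4SP, 42.2-fold higher (log2 difference 5.4 ± 0.22, adjusted p = 6.13e-05), with 1 CD4SP array just above the filter and the other under it. The other two probe sets of the gene gave the same picture, at 1263 and 1579.5 in stage 1 NKT against 51.5 and 41.6 in CD4SP, and at 728 and 745 against 51.7 and 46.2. With every probe set tested separately, their log2 differences were 4.93 ± 0.19 and 3.91 ± 0.16 (adjusted p = 3.66e-05 and 4.27e-05).

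Of 27 genes on the list of innate-like lineage transcription factors with a probe set, 23 were tested, 11 were higher and 3 lower, 47.8% and 13% against 12.1% and 4.79% of all genes, with a median of 0.37. Maf, the c-MAF factor that drives interleukin-4 and interleukin-17 programmes, read 2798 and 2690.1 in NKT and 305 and 152 in CD4SP, 12.8-fold higher (log2 difference 3.67 ± 0.31, adjusted p = 0.000611), with CD4SP arrays apart from each other and both far under the NKT arrays. Tox2, an HMG-box factor, read 744 and 904 in NKT and 61.99 and 102 in CD4SP, 10.3-fold higher (log2 difference 3.37 ± 0.25, adjusted p = 0.000398). Rora, the nuclear receptor of innate-like lymphocytes, read 1703 and 1922 in NKT and 165 and 231 in CD4SP, 9.26-fold higher (log2 difference 3.21 ± 0.20, adjusted p = 0.00021), although 2 of its 9 probe sets had the opposite sign. Lmo4, a LIM-domain adaptor, read 1745 and 1595 in NKT and 159 and 233 in CD4SP, 8.66-fold higher (log2 difference 3.11 ± 0.21, adjusted p = 0.000271). These 4 genes and Zbtb16 were each at least 8.66-fold higher.

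The 6 remaining higher factors had smaller differences. Gata3, Tbx21, Myb, Irf4 and Zbtb7b lie outside the rule for naming genes and were chosen after their values were seen. Gata3, the type 2 master regulator, read 852 and 726 in NKT and 455 and 332 in CD4SP, 2.02-fold higher (log2 difference 1.02 ± 0.20, adjusted p = 0.0161). Tbx21, which encodes T-bet, was dim throughout, with 115 and 106 in NKT and 57.9 and 61.2 in CD4SP, at least 1.34-fold higher (log2 difference 0.9 ± 0.15, adjusted p = 0.00851). Myb, needed in thymocytes for the NKT lineage, read 1705 and 1192 in NKT and 724 and 627 in CD4SP, 2.12-fold higher (log2 difference 1.08 ± 0.21, adjusted p = 0.0149). Hivep3 (Schnurri-3) read 1129.5 and 1049.5 against 494 and 449, 2.31-fold higher (log2 difference 1.21 ± 0.15, adjusted p = 0.00312). Ikzf2 (Helios) read 1335 and 902 against 539.6 and 453, 2.22-fold higher (log2 difference 1.15 ± 0.22, adjusted p = 0.0148). Irf4 read 1438 and 1179 against 789 and 719.9, 1.73-fold higher (log2 difference 0.79 ± 0.17, adjusted p = 0.0209). On the lower side, Bcl6, the follicular helper factor, read 167 and 142 in NKT and 639 and 646 in CD4SP, 4.17-fold lower (log2 difference -2.06 ± 0.15, adjusted p = 0.000406). Runx3, the CD8-lineage and cytotoxic factor, read 263 and 306 in NKT and 582 and 539.6 in CD4SP, 1.97-fold lower (log2 difference -0.98 ± 0.16, adjusted p = 0.00776). Zbtb7b, which encodes the CD4-lineage factor ThPOK, read 497 and 601 in NKT and 803 and 918 in CD4SP, 1.57-fold lower (log2 difference -0.65 ± 0.17, adjusted p = 0.0418), a call that did not hold without the filter, with probe sets averaged or tested separately, or in a fit of all 7 arrays. Myc read 1801 and 1935 in NKT and 2159.5 and 1849 in CD4SP (log2 difference -0.1 ± 0.16, adjusted p = 0.702). Runx1, needed for NKT selection, read 2430.5 and 2099 in NKT and 2098 and 2087 in CD4SP (log2 difference 0.11 ± 0.15, adjusted p = 0.656); neither was called. Eomes, at 40.6 and 43.2 against 35.3 and 41.1, and Prdm1, at 34.1 and 37.1 against 45.3 and 46.7, were under the filter in all 4 arrays.

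Id2 separated the groups more clearly than any E protein. E proteins are basic helix-loop-helix activators, and Id proteins block their binding to E-boxes. Id2 read 3708 and 3659.7 in NKT and 429 and 484 in CD4SP, 8.09-fold higher (log2 difference 3.02 ± 0.15, adjusted p = 0.00011). Id3, which receptor signals induce, read 2374 and 2234 in NKT and 1279 and 1305 in CD4SP, 1.78-fold higher (log2 difference 0.83 ± 0.14, adjusted p = 0.0103). None of the E protein genes was called. Tcf3 (E2A) read 430 and 591 against 527 and 518 (adjusted p = 0.87). Tcf12 (HEB) read 1343 and 1115 against 1163 and 1166 (adjusted p = 0.789), and Tcf4 344 and 264 against 201 and 184 (adjusted p = 0.0521). Id1 read 106 and 156 in NKT and 129 and 145 in CD4SP (log2 difference -0.09 ± 0.21, adjusted p = 0.8). In all, 2 of 6 tested members were higher and 0 lower, 33.3% higher against 12.1% of all genes.

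Egr and Nr4a genes are immediate responses to receptor signals, and of 8 members of the list with the Nab corepressors tested, Egr3 was called higher and Nr4a1 and Nr4a3 lower. Egr2, the factor that lies upstream of Zbtb16 in NKT selection, read 2292 and 2819 in NKT and 2174 and 2266 in CD4SP (log2 difference 0.2 ± 0.16, adjusted p = 0.454) and was not called, although the groups did not overlap. Egr1 read 1716 and 1868 in NKT and 2666 and 2494 in CD4SP (log2 difference -0.53 ± 0.15, adjusted p = 0.0542), without a call. Egr3 read 613 and 574 in NKT and 375 and 374 in CD4SP, 1.58-fold higher (log2 difference 0.66 ± 0.14, adjusted p = 0.0238), with its second probe set of opposite sign and no call when the probe sets were averaged. The corepressor Nab1 read 3065 and 2633 against 2546 and 2234 (adjusted p = 0.331), and Nab2 793 and 655 against 632 and 752 (adjusted p = 0.829). Nr4a1, which encodes the nuclear receptor Nur77, read 149 and 208 in NKT and 685 and 864 in CD4SP, 4.37-fold lower (log2 difference -2.13 ± 0.21, adjusted p = 0.00122). Nr4a3 read 168 and 77.5 in NKT and 1029.7 and 689.6 in CD4SP, 7.39-fold lower (log2 difference -2.89 ± 0.37, adjusted p = 0.00347), and Nr4a2 was dim at 149 and 146 against 165 and 182 (adjusted p = 0.321). The called shares of the list were 12.5% higher and 25% lower, against 12.1% and 4.79% of all genes.

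Of 15 tested factors of the naive and quiescent state 6 were lower and 1 higher, 40% and 6.67% against 4.79% and 12.1% of all genes, and 8 were not called, with a median log2 difference of -0.49. Bach2, which restrains effector differentiation, read 702 and 578 in NKT and 4274 and 4079 in CD4SP, 6.55-fold lower (log2 difference -2.71 ± 0.16, adjusted p = 0.000193). Foxp1, a keeper of naive T cell quiescence, read 1809 and 1528 in NKT and 3401 and 4051 in CD4SP, 2.23-fold lower (log2 difference -1.16 ± 0.17, adjusted p = 0.00583). Satb1, a chromatin organiser of thymocytes, read 3013 and 2791 in NKT and 5791 and 6119 in CD4SP, 2.05-fold lower (log2 difference -1.04 ± 0.15, adjusted p = 0.00499). The antiproliferative genes went both ways: Btg1 read 2996 and 3342 in NKT and 5693 and 5844 in CD4SP, 1.82-fold lower (log2 difference -0.87 ± 0.15, adjusted p = 0.00999). Tob1 read 665 and 513 in NKT and 278 and 198 in CD4SP, 2.49-fold higher (log2 difference 1.32 ± 0.22, adjusted p = 0.0092). Klf3 read 1256 and 1573 in NKT and 2376 and 2670.4 in CD4SP, 1.79-fold lower (log2 difference -0.84 ± 0.17, adjusted p = 0.0195). Btg2 read 948 and 765 in NKT and 1257 and 1349.7 in CD4SP, 1.53-fold lower (log2 difference -0.61 ± 0.17, adjusted p = 0.0495), without a call where the filter was dropped, probe sets were tested separately, arrays were centred on their median or all 7 arrays were fitted. Lef1 read 5489 and 5780.1 in NKT and 7101 and 7195 in CD4SP (log2 difference -0.34 ± 0.14, adjusted p = 0.154). Klf2, the driver of S1pr1 and thymic exit, read 891 and 892 in NKT and 1358 and 1052 in CD4SP (log2 difference -0.42 ± 0.17, adjusted p = 0.147); neither was called, although in neither did the groups overlap.

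**Figure D2:**
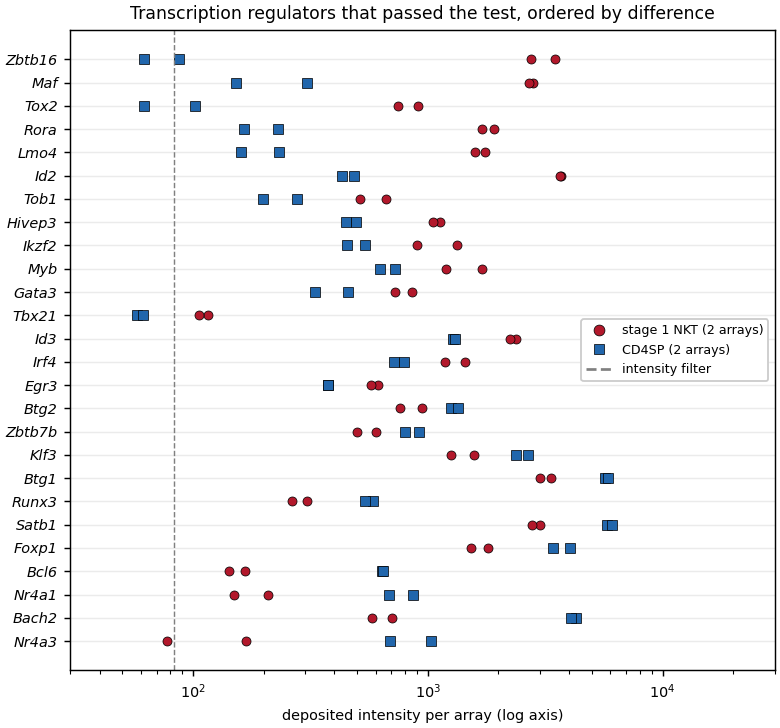
Deposited intensity (log axis) per array of the transcription regulators of the 4 lists above that were called, ordered by difference; red circles are stage 1 NKT arrays, blue squares CD4SP arrays, and the dashed line is the filter of 82.8. Zbtb16 stands at the top with CD4SP arrays at 87.3 and 61.8, and Nr4a3 at the bottom.

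Type 2 cytokine transcripts were present in stage 1 NKT cells. Il4, the hallmark NKT cytokine, read 566 and 489 in NKT and 49.3 and 51.9 in CD4SP, at least 6.35-fold higher (log2 difference 3.38 ± 0.15, adjusted p = 8.24e-05). Il13, its neighbour in the type 2 cytokine locus, read 519.8 and 644 in NKT and 69.5 and 109 in CD4SP, 6.66-fold higher (log2 difference 2.73 ± 0.24, adjusted p = 0.000699). Both NKT arrays lay well above the filter for each gene, and Il4 was under it in both CD4SP arrays. The windows of the 2 genes, 250 bases before and 50 after the start, are given for the same 3 motifs, because these neighbours were high in the same cells; they are chr11:53618616-53618915 for Il4 and chr11:53634653-53634952 for Il13, both on the minus strand and read along it.
Il4: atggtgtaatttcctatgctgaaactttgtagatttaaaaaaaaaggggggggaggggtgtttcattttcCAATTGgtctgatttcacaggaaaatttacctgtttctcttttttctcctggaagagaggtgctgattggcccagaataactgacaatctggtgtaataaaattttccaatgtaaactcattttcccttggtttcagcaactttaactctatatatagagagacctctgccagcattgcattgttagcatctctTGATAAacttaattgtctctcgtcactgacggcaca
Il13: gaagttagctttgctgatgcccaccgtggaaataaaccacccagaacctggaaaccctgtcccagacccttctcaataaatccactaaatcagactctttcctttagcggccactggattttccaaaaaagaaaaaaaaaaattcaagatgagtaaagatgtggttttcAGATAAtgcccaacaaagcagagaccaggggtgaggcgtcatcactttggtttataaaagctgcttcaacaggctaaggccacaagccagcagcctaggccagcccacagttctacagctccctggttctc
Each window held 1 GATA match, the Il4 window held 1 E-box match as well, and neither held the Egr core.

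Of 11 genes on the type 2 list, 7 were tested, 4 were higher and 2 lower, 57.1% and 28.6% against 12.1% and 4.79% of all genes. Their median was 1.98, or -0.16 over all 11 without the filter, since Il2, Il3, Il5 and Il10 were under it in every array. Ccr4, a chemokine receptor of type 2 and skin-homing cells, read 2235 and 2311 in NKT and 209.9 and 200.1 in CD4SP, 11.1-fold higher (log2 difference 3.47 ± 0.14, adjusted p = 6.49e-05). Il17rb, the interleukin-25 receptor chain, read 1234 and 1066 in NKT and 310 and 274 in CD4SP, 3.93-fold higher (log2 difference 1.98 ± 0.16, adjusted p = 0.000527). In the other direction, Il4ra, the interleukin-4 receptor chain, read 173 and 277 in NKT and 1075 and 1017 in CD4SP, 4.78-fold lower (log2 difference -2.26 ± 0.23, adjusted p = 0.00139), so the cytokine and its receptor differed in opposite directions. Ccr8 read 76.3 and 88.99 in NKT and 396 and 257 in CD4SP, 3.87-fold lower (log2 difference -1.95 ± 0.23, adjusted p = 0.00247). Stat6, which signals from the interleukin-4 receptor, read 1650.1 and 2024 in NKT and 2604 and 2427 in CD4SP (log2 difference -0.46 ± 0.17, adjusted p = 0.107).

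Of 21 type 1 and cytotoxic genes with a probe set, 13 were tested, 8 were higher and 2 lower (61.5% and 15.4%, against 12.1% and 4.79% of all genes), and 8 others, Ifng, Fasl and 3 granzymes among them, did not pass the filter. Ifng read 41.3 and 44.4 in NKT and 28.8 and 41.9 in CD4SP, under the filter in all 4 arrays. Nkg7, a granule membrane protein, read 904 and 805 in NKT and 84.2 and 96.6 in CD4SP, 9.46-fold higher (log2 difference 3.24 ± 0.16, adjusted p = 0.00011). Il12rb1, a chain of the interleukin-12 receptor, read 571 and 687 in NKT and 166 and 186 in CD4SP, 3.57-fold higher (log2 difference 1.84 ± 0.17, adjusted p = 0.000779). Il2rb, a chain of the interleukin-2 receptor, read 1472 and 2095 in NKT and 675 and 593 in CD4SP, 2.78-fold higher (log2 difference 1.47 ± 0.20, adjusted p = 0.00463). Both interleukin-18 receptor chains were higher. Il18r1 read 2373 and 2205 against 382 and 699, 4.43-fold higher (log2 difference 2.15 ± 0.28, adjusted p = 0.00364), and its CD4SP arrays lay apart. Il18rap read 183 and 141 against 86.9 and 90.3, 1.81-fold higher (log2 difference 0.86 ± 0.18, adjusted p = 0.0191). Serpinb6b, a serpin of the family that inhibits granule proteases, read 725 and 777 in NKT and 261 and 258 in CD4SP, 2.89-fold higher (log2 difference 1.53 ± 0.14, adjusted p = 0.000948). Stat4, the interleukin-12 signal transducer, ran against Il12rb1, with 168 and 124 in NKT and 465 and 422 in CD4SP, 3.07-fold lower (log2 difference -1.62 ± 0.19, adjusted p = 0.00239). Il12rb2, the other chain of that receptor, was near the filter, at 78.1 and 115.6 in NKT and 87.1 and 118 in CD4SP (log2 difference -0.1 ± 0.24, adjusted p = 0.814), and was not called. Ccl5 read 53.2 and 51.9 in NKT and 89.7 and 193 in CD4SP, at least 1.59-fold lower (log2 difference -1.32 ± 0.33, adjusted p = 0.0376), with CD4SP arrays far apart from each other and no call without the filter or in a fit of all 7 arrays. Prf1, the pore-forming perforin, read 975 and 946 in NKT and 1157 and 1039 in CD4SP (log2 difference -0.19 ± 0.15, adjusted p = 0.418).

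No type 17 gene was called. Of 9 genes on that list with a probe set, 4 were tested, and limma called 0 of them at the adjusted threshold and 0 at an unadjusted p under 0.05. Il17a read 10.04 and 10.7 in NKT and 11.2 and 10.6 in CD4SP, far under the filter, and Ccr6, the type 17 chemokine receptor, read 37.1 and 40.8 in NKT and 58.6 and 74.3 in CD4SP. The tested members were Ahr, Il17re, Tmem176a and Tmem176b.

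Of 24 genes on the cytokine receptor list with a probe set, 22 were tested, 10 were lower and Il18r1 was higher. The lower and higher shares were 45.5% and 4.55%, against 4.79% and 12.1% of all genes. The other 11 were not called, and the median was -0.50. Il2rb, Il12rb1, Il17rb and Il18rap, called higher above, were not on this list. The lower members included Ltb, which encodes a ligand and not a receptor. Il6st, the gp130 chain of the interleukin-6 family, read 714 and 714 in NKT and 2605 and 3145 in CD4SP, 4.01-fold lower (log2 difference -2.0 ± 0.16, adjusted p = 0.000487). Its partner Il6ra read 853 and 984 in NKT and 1604 and 1593 in CD4SP, 1.74-fold lower (log2 difference -0.8 ± 0.15, adjusted p = 0.0146). Both chains of the interferon-gamma receptor were lower: Ifngr2 read 511 and 570.4 in NKT and 1281 and 1385 in CD4SP, 2.47-fold lower (log2 difference -1.3 ± 0.15, adjusted p = 0.0024). Ifngr1 read 163 and 190.5 in NKT and 303 and 388 in CD4SP, 1.95-fold lower (log2 difference -0.96 ± 0.18, adjusted p = 0.0145). Tgfbr3, a coreceptor for transforming growth factor beta, read 971 and 701 in NKT and 1546 and 1554 in CD4SP, 1.88-fold lower (log2 difference -0.91 ± 0.19, adjusted p = 0.0207). Il7r, the receptor of the survival cytokine interleukin-7, read 5887 and 5933 in NKT and 4515 and 4430.5 in CD4SP (log2 difference 0.4 ± 0.14, adjusted p = 0.103), with groups that did not overlap and no call.

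Downstream of these receptors, 14 of 16 STAT, JAK and SOCS genes were tested, 4 were lower and 1 higher, 28.6% and 7.14% against 4.79% and 12.1% of all genes. Socs3, the feedback inhibitor of gp130 signals, read 72.1 and 84.3 in NKT and 202 and 289.8 in CD4SP, 3.104-fold lower (log2 difference -1.63 ± 0.21, adjusted p = 0.0035). Cish, a target of STAT5, read 125 and 122 in NKT and 206 and 293 in CD4SP, 1.99-fold lower (log2 difference -0.99 ± 0.20, adjusted p = 0.0177). Jak3 read 96.2 and 124 in NKT and 218 and 186 in CD4SP, 1.84-fold lower (log2 difference -0.88 ± 0.18, adjusted p = 0.0202). These 3 genes, with Stat4, were the lower ones, and Socs5, 222 and 208 against 116 and 117, was the higher one (log2 difference 0.88 ± 0.14, adjusted p = 0.00848), a call lost in a fit of all 7 arrays. Stat3, Stat5a and Stat5b were not called (adjusted p = 0.52, 0.0588 and 0.305).

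**Figure D3:**
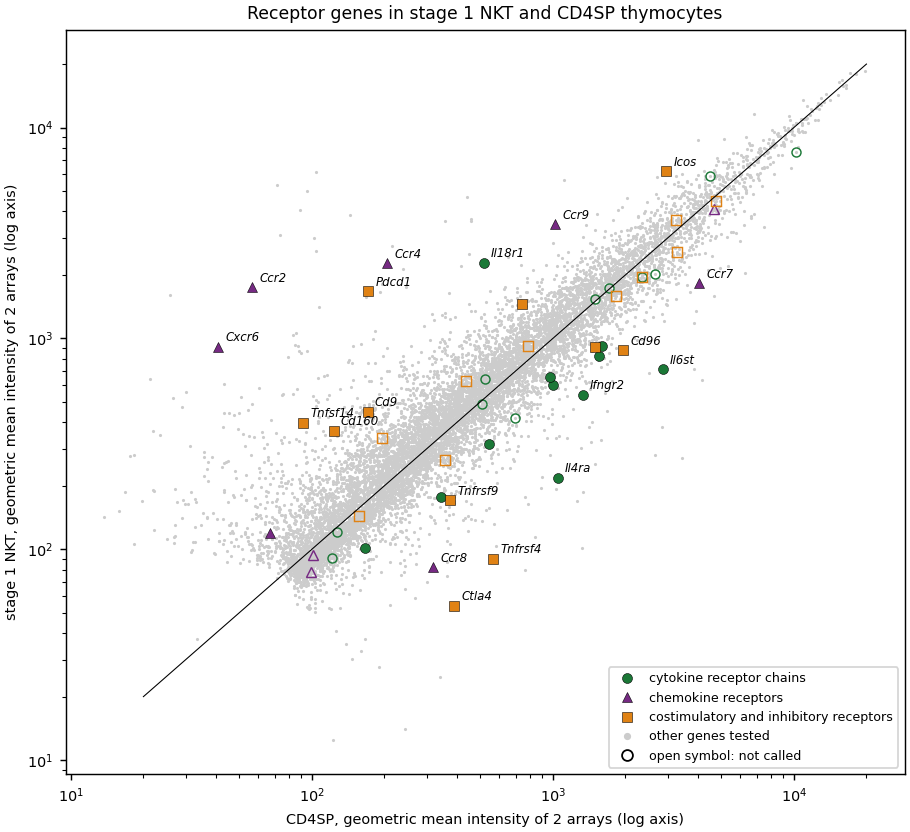
Geometric mean intensity of the 2 CD4SP arrays (x, log axis) against that of the 2 stage 1 NKT arrays (y, log axis) for 3 receptor lists, over the other tested genes in grey; filled symbols were called, open ones were not, and called genes that differed at least 2-fold are named. Most called members of the cytokine receptor list, which leaves out Il2rb, Il12rb1, Il17rb and Il18rap, lie below the line of equality. The chemokine receptors Ccr2, Cxcr6, Ccr4 and Ccr9 lie above it.

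Of 15 chemokine receptor genes 10 were tested, 5 were higher and 2, Ccr7 and Ccr8, lower. The shares were 50% and 20%, against 12.1% and 4.79% of all genes. Ccr2, Cxcr6 and Ccr10 were under the filter in both CD4SP arrays and passed it only through the NKT arrays. The filter therefore shapes this count, and without it 4 of 15 were higher and 2 lower. The median was 0.36 and without the filter -0.18. Ccr2, a receptor for inflammatory monocyte chemokines, read 1776 and 1732 in NKT and 75.4 and 42.5 in CD4SP, at least 21.2-fold higher (log2 difference 4.95 ± 0.27, adjusted p = 0.000129). Cxcr6, which holds NKT cells in liver and other tissues, read 944 and 885 in NKT and 43.6 and 38.3 in CD4SP, at least 11.04-fold higher (log2 difference 4.48 ± 0.15, adjusted p = 3.28e-05). Ccr9, the gut and thymus homing receptor, read 3341 and 3610 in NKT and 1198 and 869 in CD4SP, 3.404-fold higher (log2 difference 1.77 ± 0.19, adjusted p = 0.00172). Ccr4 and Ccr8 were given above, and the dim Ccr10 lost its call without the filter. Ccr7, which guides T cells to the thymic medulla and lymph nodes, read 1719 and 1936 in NKT and 3849 and 4227 in CD4SP, 2.21-fold lower (log2 difference -1.14 ± 0.15, adjusted p = 0.00418). Cxcr3, known for later type 1 NKT cells, was near the filter at 69.3 and 87.03 against 94.9 and 104 (adjusted p = 0.208), and Cxcr4 bright at 4305 and 3927 against 4766 and 4574 (adjusted p = 0.433).

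Of the genes of egress and recirculation, 3 of 12 tested were lower and Plac8 alone was higher, 25% and 8.33% against 4.79% and 12.1% of all genes. S1pr1, the sphingosine receptor required to leave the thymus, read 1077 and 1395 in NKT and 2122 and 2678 in CD4SP, 1.95-fold lower (log2 difference -0.96 ± 0.20, adjusted p = 0.0193). Cd69, its antagonist at the cell surface, was lower as well, at 283 and 277 in NKT and 882 and 1066 in CD4SP, 3.46-fold lower (log2 difference -1.79 ± 0.16, adjusted p = 0.000756). Of 21 integrin and adhesion genes with a probe set, 20 were tested, 2 were higher and 2 lower, 10% each against 12.1% and 4.79% of all genes. Itgae, the CD103 chain that binds E-cadherin on epithelium, read 2401 and 2782 in NKT and 149.9 and 72.1 in CD4SP, 24.9-fold higher (log2 difference 4.64 ± 0.32, adjusted p = 0.000298), and its CD4SP arrays lay on either side of the filter. Itga2, the CD49b chain of NK cells, read 180.4 and 237 in NKT and 83.3 and 72.02 in CD4SP, 2.67-fold higher (log2 difference 1.42 ± 0.19, adjusted p = 0.00392). Cd5, a surface gauge of receptor signal strength, read 1396 and 1215 in NKT and 2792 and 2854 in CD4SP, 2.17-fold lower (log2 difference -1.12 ± 0.15, adjusted p = 0.00436). Its relative Cd6 read 1231 and 1066 in NKT and 2133 and 2201 in CD4SP, 1.89-fold lower (log2 difference -0.92 ± 0.15, adjusted p = 0.00906). The beta chain partner of CD103, Itgb7, read 3532 and 3907 in NKT and 4012 and 4065 in CD4SP (log2 difference -0.12 ± 0.15, adjusted p = 0.612).

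Proximal T cell receptor signalling genes were mostly not called. Of 29 tested, 4 were lower and 1 higher, 13.8% and 3.45% against 4.79% and 12.1% of all genes, with a median of -0.23; 20 had a negative difference. Ubash3a, a phosphatase-like inhibitor of receptor signals, read 133 and 139 in NKT and 555 and 463 in CD4SP, 3.72-fold lower (log2 difference -1.9 ± 0.16, adjusted p = 0.000611). Rasgrp1, the exchange factor that passes the signal to Ras, read 1543 and 1623 in NKT and 4497 and 4829.6 in CD4SP, 2.94-fold lower (log2 difference -1.56 ± 0.15, adjusted p = 0.000918). Cd2 read 3606 and 3850.2 in NKT and 6374 and 6857 in CD4SP, 1.77-fold lower (log2 difference -0.83 ± 0.15, adjusted p = 0.0115). Nfatc1, the inducible calcium-responsive factor, read 1384 and 1520.1 in NKT and 912 and 899 in CD4SP, 1.602-fold higher (log2 difference 0.68 ± 0.15, adjusted p = 0.023). Vav1, at 578 and 587 against 894 and 831 (adjusted p = 0.0407), lost its call without the filter or with probe sets averaged or tested separately. The kinase Zap70 and the chains Cd3d, Cd3g and Cd3e had log2 differences of 0.1 ± 0.17, 0.06 ± 0.15, -0.1 ± 0.15 and -0.35 ± 0.16, none of them called.

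Feedback genes of the MAP kinase pathway gave 3 lower and 1 higher of 14 tested, and 6 more did not pass the filter. The shares were 21.4% lower and 7.14% higher, against 4.79% and 12.1% of all genes. Dusp6, the ERK phosphatase, read 322 and 272 in NKT and 682 and 594 in CD4SP, 2.15-fold lower (log2 difference -1.11 ± 0.17, adjusted p = 0.00619). Dusp5 read 469.5 and 407 against 624 and 736 (adjusted p = 0.0433), and Dusp10 511 and 319 against 857 and 697 (adjusted p = 0.0436); neither was called without the filter. Spry2, a Sprouty inhibitor of Ras signals, ran the other way, with 160.5 and 175 in NKT and 37.8 and 28.7 in CD4SP, at least 2.02-fold higher (log2 difference 2.35 ± 0.18, adjusted p = 0.000447). The immediate early genes Fos and Jun differed within a group: Jun read 111 and 735 in NKT and 59 and 88.1 in CD4SP (adjusted p = 0.13). Fos read 22.2 and 136 in NKT and 88.8 and 84.5 in CD4SP (adjusted p = 0.571). In each, stage 1 NKT array 2 was far above array 1, and neither was called.

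Costimulatory and inhibitory receptors were called in both directions, with 6 higher and 5 lower of 21 tested, 28.6% and 23.8% against 12.1% and 4.79% of all genes, and 3 did not pass the filter. Pdcd1, the inhibitory receptor PD-1, read 1874 and 1491 in NKT and 169 and 174 in CD4SP, 9.74-fold higher (log2 difference 3.28 ± 0.17, adjusted p = 0.000111). Icos, a costimulator of NKT cells chosen after its values were seen, read 6599 and 5867 in NKT and 3135 and 2778 in CD4SP, 2.11-fold higher (log2 difference 1.08 ± 0.16, adjusted p = 0.00555). Tnfsf14, the ligand LIGHT, read 394 and 403 in NKT and 96.3 and 88.4 in CD4SP, 4.32-fold higher (log2 difference 2.11 ± 0.15, adjusted p = 0.000298). Cd160, a receptor for the same partner HVEM, read 414 and 321 in NKT and 134 and 113 in CD4SP, 2.96-fold higher (log2 difference 1.57 ± 0.19, adjusted p = 0.00256), without a call when arrays were normalized again. Cd9, a tetraspanin, read 512 and 393 in NKT and 196 and 148 in CD4SP, 2.64-fold higher (log2 difference 1.4 ± 0.21, adjusted p = 0.00583).

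The lower receptors included several that regulatory T cells carry. Ctla4 read 47.1 and 61.6 in NKT and 464 and 326 in CD4SP, at least 4.69-fold lower (log2 difference -2.85 ± 0.22, adjusted p = 0.000463). Tnfrsf4, which encodes OX40, read 95.3 and 85.3 in NKT and 598 and 535 in CD4SP, 6.27-fold lower (log2 difference -2.65 ± 0.15, adjusted p = 0.00018). Tnfrsf18 (GITR) read 901 and 909.9 in NKT and 1588 and 1396 in CD4SP, 1.65-fold lower (log2 difference -0.72 ± 0.15, adjusted p = 0.0208). Tnfrsf9 (4-1BB) read 192 and 151 in NKT and 389 and 359 in CD4SP, 2.19-fold lower (log2 difference -1.13 ± 0.17, adjusted p = 0.00665), with 1 of its 3 probe sets of opposite sign. Cd96 read 851 and 914 in NKT and 1854 and 2076 in CD4SP, 2.23-fold lower (log2 difference -1.15 ± 0.15, adjusted p = 0.00387). Markers of regulatory T cells moved with these genes: Foxp3, the defining factor, read 161 and 166 in NKT and 465 and 449 in CD4SP, 2.79-fold lower (log2 difference -1.48 ± 0.14, adjusted p = 0.00103). Gpr83 read 97.1 and 111 against 645 and 519, 5.57-fold lower (log2 difference -2.48 ± 0.17, adjusted p = 0.000299). Ikzf4 read 587 and 515 against 1661 and 1645, 3.01-fold lower (log2 difference -1.59 ± 0.15, adjusted p = 0.000972). Of 10 markers on that list 6 were lower, Ctla4, Tnfrsf18 and Il2ra among them, and 2, Capg and Ikzf2, higher. The shares were 60% lower and 20% higher, against 4.79% and 12.1% of all genes. The summed intensity of the list was 9535 and 9315 in stage 1 NKT and 8382 and 8690 in CD4SP. Capg, a bright member given above, enters that sum in the direction opposite to the 6 lower markers. The part of regulatory T cells within the CD4SP gate in the lower receptors, and in Il2ra at 103 and 100.4 against 148 and 185 (adjusted p = 0.033, no call without the filter or in a fit of all 7 arrays), was not tested.

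SLAM receptors, which deliver the selecting signal that NKT precursors exchange with other thymocytes, gave 3 calls. Slamf6 read 1888 and 1821 in NKT and 1069 and 1121 in CD4SP, 1.69-fold higher (log2 difference 0.76 ± 0.14, adjusted p = 0.0143). Sh2d1a, the adaptor SAP required for NKT development, read 1244 and 866 in NKT and 574 and 514 in CD4SP, 1.91-fold higher (log2 difference 0.93 ± 0.21, adjusted p = 0.0248), a call lost without the filter. Slamf1 read 142 and 121 in NKT and 470.3 and 688 in CD4SP, 4.34-fold lower (log2 difference -2.12 ± 0.21, adjusted p = 0.00127). Of 9 with a probe set, 7 were tested, 2 were higher and 1 lower, 28.6% and 14.3% against 12.1% and 4.79% of all genes. Fyn, the kinase that SAP recruits, read 2666 and 3179 in NKT and 4355 and 3665 in CD4SP (log2 difference -0.46 ± 0.17, adjusted p = 0.12).

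Several NK receptor genes were higher although the cells were gated as NK1.1 negative. Of 16 genes on the list 8 passed the filter, 5 were higher and 1 lower, 62.5% and 12.5% against 12.1% and 4.79% of all genes. Klrb1a, Klrd1, Klrb1f and Fcer1g were under the filter in both CD4SP arrays and passed it only through the NKT arrays. The filter therefore shapes this count, and without it the median of all 16 was -0.02. Klrb1a, of the NKR-P1 family, read 370.1 and 257 in NKT and 38.9 and 24.9 in CD4SP, at least 3.73-fold higher (log2 difference 3.31 ± 0.27, adjusted p = 0.000508). Klrd1, the CD94 chain, read 154 and 126 in NKT and 54.6 and 33.4 in CD4SP, at least 1.68-fold higher (log2 difference 1.7 ± 0.25, adjusted p = 0.00579). Klrb1f read 97.5 and 125 in NKT and 41.4 and 45.3 in CD4SP, at least 1.33-fold higher (log2 difference 1.35 ± 0.17, adjusted p = 0.00373). Fcer1g, an adaptor chain, read 253 and 218 in NKT and 68.9 and 82.5 in CD4SP, at least 2.83-fold higher (log2 difference 1.64 ± 0.17, adjusted p = 0.00138). The adaptor Tyrobp (DAP12) ran the other way, with 116 and 61.9 in NKT and 208 and 349.5 in CD4SP, 3.18-fold lower (log2 difference -1.67 ± 0.35, adjusted p = 0.0205), a call lost without the filter. Klrk1, Klrg1, Klrc1 and the NK-defining Ncr1 were under the filter in all 4 arrays, Ncr1 at 14.04 and 16.8 against 13.4 and 16.8.

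Of 18 Bcl2-family and survival genes with a probe set, 16 were tested, 6 were lower and 3 higher, 37.5% and 18.8% against 4.79% and 12.1% of all genes, with a median of -0.48. Bcl2l11, which encodes the death inducer BIM, read 691 and 675 in NKT and 2275 and 2782 in CD4SP, 3.68-fold lower (log2 difference -1.88 ± 0.16, adjusted p = 0.000668). Bcl2, the survival protein it binds, was also lower, at 4172 and 3655 in NKT and 6636 and 7046 in CD4SP, 1.75-fold lower (log2 difference -0.81 ± 0.15, adjusted p = 0.0143). Among targets of NF-kB, Traf1 read 382 and 476 against 1024 and 1184, 2.58-fold lower (log2 difference -1.37 ± 0.17, adjusted p = 0.0035). Tnfaip3 (A20) read 380.2 and 310.1 against 795 and 678, 2.14-fold lower (log2 difference -1.1 ± 0.17, adjusted p = 0.0076). Birc3 read 598 and 584 against 1349 and 1143, 2.101-fold lower (log2 difference -1.07 ± 0.16, adjusted p = 0.00563). Birc5 (survivin), which also belongs to mitosis, read 1334 and 1158 in NKT and 568 and 448 in CD4SP, 2.47-fold higher (log2 difference 1.3 ± 0.18, adjusted p = 0.00443). The death effector Bak1 read 1314 and 1542 against 889 and 901 (adjusted p = 0.0295), and Bid 233 and 240.2 against 156 and 102 (adjusted p = 0.0334). Both were called higher, and both calls were lost without the filter.

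Gimap genes, which encode GTPases that keep resting T cells alive, had a median of -0.79. All 8 were tested and had a negative difference, and 5 were lower, 62.5% against 4.79% of all genes. Gimap7 read 188 and 143 in NKT and 849 and 727 in CD4SP, 4.79-fold lower (log2 difference -2.26 ± 0.19, adjusted p = 0.000595). Gimap3 read 1210 and 1159 in NKT and 3662 and 4016 in CD4SP, 3.24-fold lower (log2 difference -1.7 ± 0.15, adjusted p = 0.000681). Gimap4 read 3944 and 3676 in NKT and 6612 and 6690.5 in CD4SP, 1.75-fold lower (log2 difference -0.8 ± 0.14, adjusted p = 0.012). Gimap8 and Gimap6 had log2 differences of -0.89 ± 0.15 and -0.77 ± 0.15. Gimap5, whose loss is lethal to T cells, read 415 and 337 in NKT and 446 and 382 in CD4SP (log2 difference -0.14 ± 0.17, adjusted p = 0.61). Among the Rgs regulators of G protein signals 7 of 9 were tested, 1 was higher and 2 lower, 14.3% and 28.6% against 12.1% and 4.79% of all genes. Rgs10 read 1899 and 1751 in NKT and 3049 and 3598 in CD4SP, 1.82-fold lower (log2 difference -0.86 ± 0.16, adjusted p = 0.0133).

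**Figure D4:**
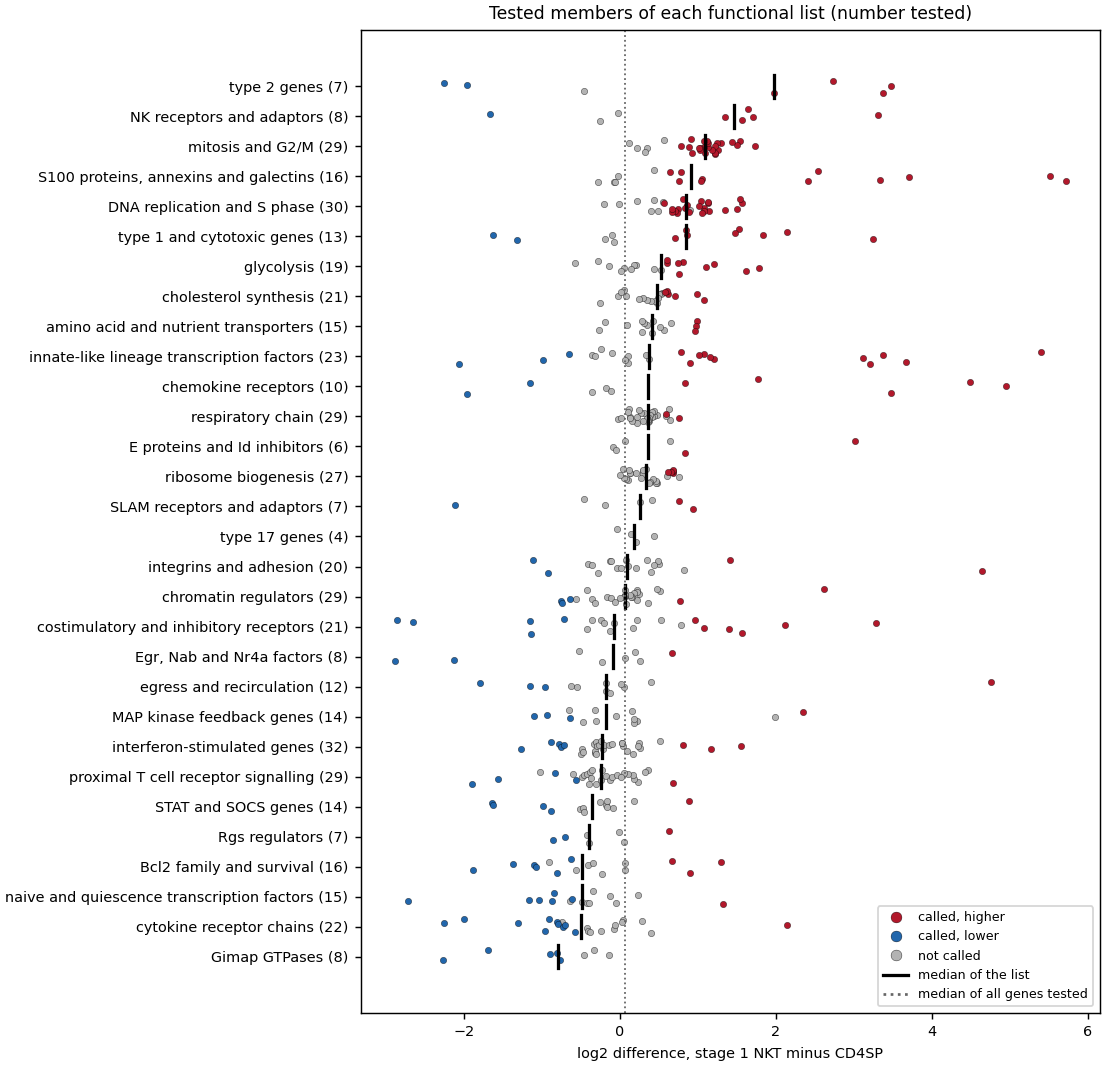
Log2 difference, stage 1 NKT minus CD4SP, of every tested member of the 30 functional lists, with the number tested in brackets; red points were called higher, blue lower, grey not called, black bars are list medians and the dotted line is the median of all genes tested, 0.07. Genes under the filter are not drawn, which sets the medians of the type 2 and NK receptor lists: 1.98 and 1.46 here, they are -0.16 and -0.02 without the filter.

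Every called proliferation gene was higher. Of 30 tested genes of DNA replication and S phase, 22 were higher and 0 lower (73.3% against 12.1% of all genes), with a median of 0.85. Of 29 genes of mitosis and G2/M, 24 were higher and 0 lower (82.8%), with a median of 1.09 and no negative difference. Cdk1, the mitotic kinase, read 934 and 639.8 in NKT and 279 and 193 in CD4SP, 3.33-fold higher (log2 difference 1.74 ± 0.25, adjusted p = 0.00537). Ccnb2, a cyclin that activates it, read 1039 and 888 in NKT and 406 and 285 in CD4SP, 2.82-fold higher (log2 difference 1.5 ± 0.21, adjusted p = 0.00463). Bub1, a kinase of the spindle checkpoint, read 279.7 and 268 in NKT and 118 and 75.3 in CD4SP, 2.91-fold higher (log2 difference 1.54 ± 0.23, adjusted p = 0.00571). Among replication genes, Gins1 of the replicative helicase read 672 and 666 in NKT and 259 and 205 in CD4SP, 2.91-fold higher (log2 difference 1.54 ± 0.17, adjusted p = 0.00181). Cdc6, the licensing factor, read 684 and 696 in NKT and 319.8 and 231 in CD4SP, 2.54-fold higher (log2 difference 1.34 ± 0.19, adjusted p = 0.00499). Uhrf1, which maintains DNA methylation, read 1118 and 1018 in NKT and 449 and 315 in CD4SP, 2.84-fold higher (log2 difference 1.5 ± 0.20, adjusted p = 0.00414). Mki67 and Pcna, the usual proliferation markers, were bright in both groups, and neither was called. Mki67 read 6200.3 and 6297 against 4624 and 3878 (adjusted p = 0.0542), and Pcna 6777 and 6929.7 against 5329 and 5094 (adjusted p = 0.109). Aurka and Tpx2 were higher on their brightest probe sets with 1 of 2 and 2 of 4 probe sets of opposite sign.

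Cdk1, Uhrf1 and Ccnb2 each read less in array 2 than in array 1 of both groups. Cdc6, Mki67 and Pcna read less in array 2 of CD4SP but slightly more in array 2 of NKT. The S phase list summed to 51550 and 53820 in NKT and 33290 and 31610 in CD4SP. The mitosis list summed to 33720 and 30550 in NKT and 19620 and 15550 in CD4SP. The arrays numbered 2 were those with Y-linked transcripts, and the part of sex or of the pool in this spread was not tested.

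**Figure D5:**
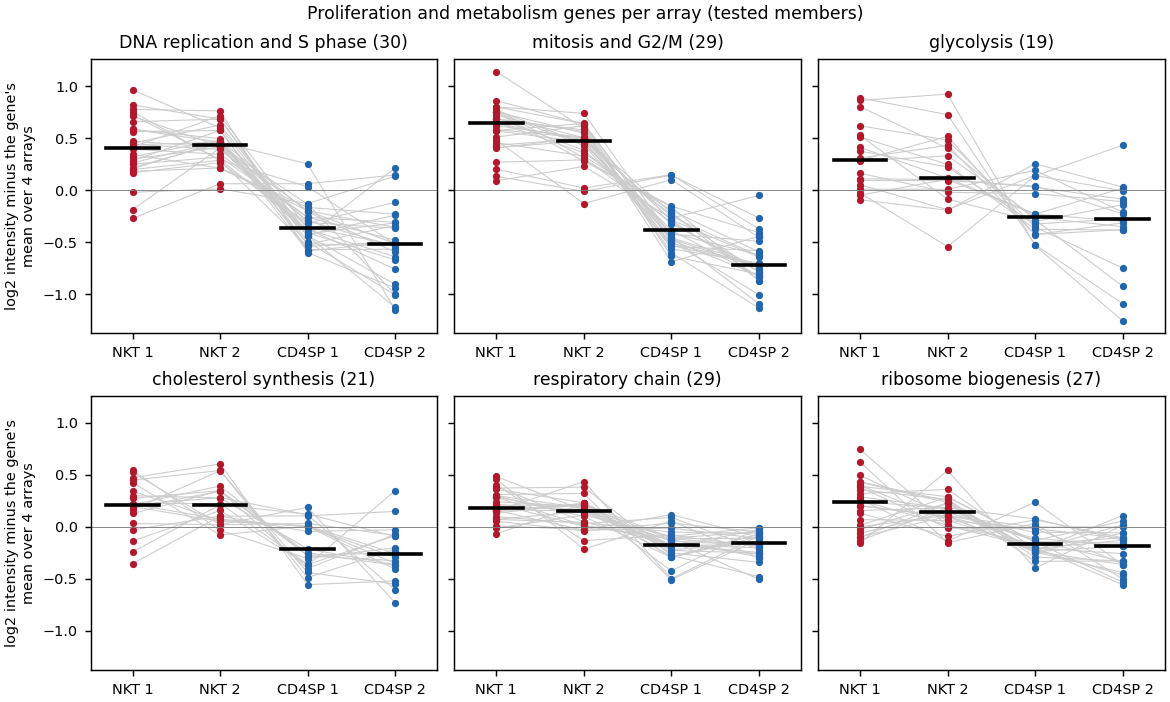
Log2 intensity of each tested gene minus its mean over the 4 arrays, by array, for 6 lists of proliferation and metabolism genes; grey lines join the values of a gene and black bars are the medians in an array. Medians of both NKT arrays are above 0 and those of both CD4SP arrays below 0 in each panel, with the widest gap for mitosis and the narrowest for the respiratory chain and ribosome biogenesis.

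Every called gene of glycolysis, cholesterol synthesis and nutrient transport was higher as well. Of 19 tested glycolysis genes 9 were higher and 0 lower (47.4% higher against 12.1% of all genes), with a median of 0.53. With probe sets averaged, 8 of 18 glycolysis genes were higher and 1 lower, with a median of 0.31. With the replicate number as a block, 10 of 19 were higher and 1 lower. Tpi1, triosephosphate isomerase, read 1775 and 1589 in NKT and 668 and 451 in CD4SP, 3.06-fold higher (log2 difference 1.61 ± 0.21, adjusted p = 0.00396). Hk2, the inducible hexokinase, read 472 and 357 in NKT and 222 and 142 in CD4SP, 2.31-fold higher (log2 difference 1.21 ± 0.25, adjusted p = 0.0196). Pfkl, a phosphofructokinase, read 943 and 858 in NKT and 480.3 and 366 in CD4SP, 2.15-fold higher (log2 difference 1.1 ± 0.18, adjusted p = 0.00862). Aldoc read 137 and 143 in NKT and 52.01 and 31.4 in CD4SP, at least 1.69-fold higher (log2 difference 1.79 ± 0.24, adjusted p = 0.00433). The glucose transporters Slc2a1 and Slc2a3 and the lactate dehydrogenase Ldha were not called (adjusted p = 0.397, 0.228 and 0.464), while Slc16a3, a carrier of lactate, read 169 and 199 in NKT and 103 and 107 in CD4SP, 1.75-fold higher (log2 difference 0.81 ± 0.16, adjusted p = 0.0155).

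Of 22 genes of the cholesterol synthesis list with a probe set, 21 were tested, 6 were higher and 0 lower, 28.6% higher against 12.1% of all genes. The count fell to 2 when arrays were normalized again, to 2 without the filter and to 4 with every probe set tested. Idi1, an isoprenoid enzyme, read 644 and 707 in NKT and 316 and 324 in CD4SP, 2.11-fold higher (log2 difference 1.08 ± 0.15, adjusted p = 0.00436). Cyp51, a sterol demethylase, read 495 and 528 in NKT and 268 and 247 in CD4SP, 1.99-fold higher (log2 difference 0.99 ± 0.15, adjusted p = 0.00606). Of 17 nutrient transporters 15 were tested and 3 were higher, 20% against 12.1% of all genes. Slc7a5, the large neutral amino acid carrier, read 694 and 768 in NKT and 398 and 352 in CD4SP, 1.95-fold higher (log2 difference 0.97 ± 0.15, adjusted p = 0.00788). Slc38a1 read 3006 and 2644 against 1606 and 1269, 1.98-fold higher (log2 difference 0.98 ± 0.18, adjusted p = 0.012). Slc29a1 read 132 and 109.6 against 63.5 and 58.03, at least 1.45-fold higher (log2 difference 0.99 ± 0.16, adjusted p = 0.00886). The partner chain of Slc7a5, Slc3a2, read 826 and 915 in NKT and 578 and 640 in CD4SP (log2 difference 0.52 ± 0.15, adjusted p = 0.0635).

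Ribosome biogenesis and respiration gave few calls, all of them higher. All 27 tested ribosome biogenesis genes had a positive difference and 5 were higher (18.5% against 12.1%), with a median of 0.34. Nhp2, a small nucleolar RNA-binding protein, read 2433 and 2501 in NKT and 1678 and 1414 in CD4SP, 1.601-fold higher (log2 difference 0.68 ± 0.16, adjusted p = 0.0294). Nolc1, a nucleolar phosphoprotein, read 1588 and 1480.2 in NKT and 1093 and 838 in CD4SP, 1.602-fold higher (log2 difference 0.68 ± 0.18, adjusted p = 0.0435), with 1 of the 3 probe sets of Nolc1 of opposite sign; both calls were lost without the filter. Of 29 respiratory chain genes, 28 had a positive difference and 2 were higher (6.90%), under the share over all genes, with a median of 0.36. Cycs, cytochrome c, read 4253 and 3892 in NKT and 2786 and 2614 in CD4SP, 1.51-fold higher (log2 difference 0.59 ± 0.15, adjusted p = 0.0378), a call lost without the filter or with probe sets averaged. Uqcrq read 1605 and 1614 in NKT and 1024 and 889.6 in CD4SP, 1.69-fold higher (log2 difference 0.75 ± 0.15, adjusted p = 0.0184), with 2 of its 4 probe sets of opposite sign and no call with probe sets averaged or in a fit of all 7 arrays.

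Of 33 interferon-stimulated genes with a probe set, 32 were tested, 3 were higher and 5 lower, 9.38% and 15.6% against 12.1% and 4.79% of all genes, with a median of -0.23. Oas1a, whose enzyme makes the activator of RNase L, read 1339 and 1357 in NKT and 572 and 367 in CD4SP, 2.94-fold higher (log2 difference 1.56 ± 0.22, adjusted p = 0.00533). Oas3, of the same family, read 3483 and 2604 in NKT and 1636 and 1092 in CD4SP, 2.25-fold higher (log2 difference 1.17 ± 0.24, adjusted p = 0.0194). On the lower side, among interferon-gamma-inducible GTPases, Iigp1 read 284 and 304 in NKT and 832 and 606 in CD4SP, 2.42-fold lower (log2 difference -1.27 ± 0.19, adjusted p = 0.00614). Igtp read 1508 and 1597 in NKT and 2972 and 2731 in CD4SP, 1.84-fold lower (log2 difference -0.88 ± 0.15, adjusted p = 0.00946). Irf9, the DNA-binding part of the type I interferon complex, read 529.9 and 583 in NKT and 872 and 1043 in CD4SP, 1.72-fold lower (log2 difference -0.78 ± 0.16, adjusted p = 0.0206).

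Chromatin regulators gave 2 higher and 3 lower of 29 tested, 6.90% and 10.3% against 12.1% and 4.79% of all genes, and 1 did not pass the filter. Cxxc5, a CpG-binding protein, stood apart at 707 and 599.9 in NKT and 91.7 and 122 in CD4SP, 6.15-fold higher (log2 difference 2.62 ± 0.19, adjusted p = 0.000361). Ezh2, the methyltransferase of Polycomb complex 2, read 1320.4 and 1198 in NKT and 863 and 626 in CD4SP, 1.71-fold higher (log2 difference 0.78 ± 0.19, adjusted p = 0.0372), a call lost without the filter, and its partners Suz12 and Eed were not called (adjusted p = 0.429 and 0.816). Hdac7, Tet3 and Kdm6b were the lower ones, with adjusted p = 0.0426, 0.0457 and 0.0339, and none kept its call without the filter. Dnmt1 read 4130.5 and 4660.2 in NKT and 3570.4 and 3842 in CD4SP (log2 difference 0.24 ± 0.15, adjusted p = 0.318).

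Gene segments of the T cell receptor were looked at after their values had been seen, and since segments share sequence their probe sets can hybridise to more than the named one. Of 9 segments with a probe set of 1 symbol, 8 were tested, 2 were higher and 4 lower, where 12.1% and 4.79% of all genes were. Both gamma segments were the higher ones: Trgv4 read 5154 and 5542 in NKT and 96.6 and 52.95 in CD4SP, 74.7-fold higher (log2 difference 6.22 ± 0.28, adjusted p = 7.05e-05). Trgv1 read 5860.2 and 6512 in NKT and 104 and 105 in CD4SP, 59.2-fold higher (log2 difference 5.89 ± 0.15, adjusted p = 2.53e-05). The alpha segments Trav12n-1, Trav12n-2 and Trav6-3 were lower, with Trav12n-2 at 267 and 295 in NKT and 2755 and 2543 in CD4SP, 9.44-fold lower (log2 difference -3.24 ± 0.15, adjusted p = 8.74e-05). Trav12n-1 read 64.7 and 98.5 in NKT and 781 and 748 in CD4SP, 9.57-fold lower (log2 difference -3.26 ± 0.22, adjusted p = 0.000271). Trav9d-3 was bright in both groups, at 13660 and 13430 in NKT and 10340 and 11430 in CD4SP (log2 difference 0.32 ± 0.15, adjusted p = 0.194), but its difference was -1.66 with probe sets averaged. The beta segment Trbv13-2 read 953 and 1031 in NKT and 2372 and 2292 in CD4SP, 2.35-fold lower (log2 difference -1.23 ± 0.15, adjusted p = 0.00256). Trbv1 read 8781 and 8026 in NKT and 9552 and 8632 in CD4SP (log2 difference -0.11 ± 0.15, adjusted p = 0.643).

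Markers of gamma delta T cells were looked at as well, in a list that holds the gamma segment Trgv4 itself. All 5 that were tested were higher, 100% against 12.1% of all genes. Sox13 was under the filter in both CD4SP arrays and passed it only through the NKT arrays. Blk, at 109 and 75.5 in NKT and 49.1 and 52.8 in CD4SP, did not pass. The filter therefore shapes this count, and without it 5 of 6 were higher. The summed intensity of the 6 on the list was 9816 and 10540 in stage 1 NKT and 754 and 504 in CD4SP. Trgv4, at 5154 and 5542 in NKT, and Maf, at 2798 and 2690, made up most of the NKT sums. Sox13, a factor of that lineage, read 199 and 348 in NKT and 48.6 and 41.8 in CD4SP, at least 3.18-fold higher (log2 difference 2.55 ± 0.27, adjusted p = 0.00145). Of the scavenger receptors known from the same cells, 5830411N06Rik read 795 and 1095 against 81.9 and 88.7, 10.9-fold higher (log2 difference 3.45 ± 0.19, adjusted p = 0.000149). Cd163l1 read 761 and 785 against 172 and 115, 5.48-fold higher (log2 difference 2.45 ± 0.21, adjusted p = 0.000663). The delta constant gene was not analysed here, and the part of gamma delta T cells in these values, and in Maf, was not tested.

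Markers of immature thymocytes and of the CD8 lineage were called in both directions. Rag1, Rag2 and Ptcra, which define immature thymocytes, were under the filter in all 4 arrays, Rag1 at 21.7 and 26.99 against 28.7 and 30.04, while Dntt, Cd8a and Cd8b1 were higher in CD4SP, and the part of immature or CD8-lineage cells in these 3 genes was not tested. Of 7 tested markers of the immature thymocyte list 1 was higher, Ccr9, and 3 lower, 14.3% and 42.9% against 12.1% and 4.79% of all genes. The summed intensity of the list was 6732 and 6711 in stage 1 NKT and 5357 and 4906 in CD4SP. Much of that sum was Ccr9 alone, at 3341 and 3610 in NKT and 1198 and 869 in CD4SP. Of the 5 CD8 lineage markers tested, Itgae and Nkg7 were higher and Runx3, Cd8a and Cd8b1 lower, 40% and 60%. The list summed to 3754 and 4097 in stage 1 NKT and 1210 and 1165 in CD4SP. Itgae, at 2401 and 2782 in NKT, and Nkg7, at 904 and 805, made up most of the NKT sums. NK cell markers summed to 588 and 433 against 407 and 576, with Ncr1 and Klre1 under the filter throughout.

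Other cell types gave few calls. Ms4a1, Cd22 and Ebf1 of the B cell list were under the filter in all 4 arrays, although Cd79b read 206 and 143 in NKT and 66.2 and 42.99 in CD4SP, at least 2.08-fold higher (log2 difference 1.69 ± 0.26, adjusted p = 0.00712). Cd79a read 74 and 85.6 in NKT and 143 and 138 in CD4SP, 1.77-fold lower (log2 difference -0.82 ± 0.15, adjusted p = 0.0138). Of the myeloid and dendritic list 5 genes were tested, and limma called 0 of them at the adjusted threshold and 1, Cst3, had an unadjusted p under 0.05; Lyz2, Csf1r and Itgam were under the filter. No erythroid marker reached the filter in enough arrays to be tested. On the thymic epithelium list Epcam, at 87.4 and 100.1 against 135 and 153, was the only call (adjusted p = 0.041), and it was lost without the filter, with probe sets tested separately and in a fit of all 7 arrays. Of 7 tested heat shock and stress genes limma called 0, and 1, Hsp90aa1, had an unadjusted p under 0.05.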

How the data were processed

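Thymocyte RNA from 4 samples, 2 of stage 1 NKT cells and 2 of CD4SP cells, was amplified and labelled with NuGEN kits and hybridised to Affymetrix mouse arrays, per the labels' protocols. The deposited values are RMA intensities made with Affymetrix Expression Console, per the submitters' processing notes, with versions not given in the sources used here. They are on a linear intensity scale, judged from the values, so log2 was taken first. RMA pulls low values together and its dim values have no firm zero, so folds of dim genes are given as lower limits.

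The platform annotation, which can be old, gave 1 symbol to 34945 of 45037 probe sets and several symbols to 932, and the remaining 9160 are unnamed here; 34741 of the probe sets with 1 symbol matched RefSeq by gene ID and 0 symbols changed. The brightest probe set by mean log2 stood for each of 18193 genes. Genes reaching the 50th percentile of the 4 arrays' values, 82.8, in at least 2 arrays were tested between group means with the moderated linear model of limma (version 3.58.1, R 4.3.3), with Benjamini-Hochberg adjustment over all 10594 genes and a threshold of 0.05. With 2 residual degrees of freedom and 4.83 from the prior, precision is limited by the number of arrays. On simulated data for this comparison over 10594 genes, 8.96% of changes of 0.5, 91.0% of 1 and 100% of 2 on the log2 scale were recovered with 5 false calls. The simulation changed only 67, 67 and 66 genes and drew independent errors. In the real arrays 16.9% of genes were called, and same-numbered arrays deviated together (correlation 0.411). These rates and the false calls therefore need not hold for the real comparison.

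Named were the Zbtb16 probe sets, the 15 largest called differences in each direction, up to 8 called members of each list by size, members without a call as values, and the genes of the sort and of the E protein, Id, Egr, Nab and Nr4a families. The members and lists were chosen with earlier results of these data known. The labels call the samples biological replicates of pooled mice. Same-numbered arrays are not stated to share a batch, so no pairing was assumed. Promoter sequences came from RefSeq (GRCm38.p6), which had an entry for 8644 of the genes tested.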

Additional observations from a re-analysis of the deposited data

How the results depend on the processing

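Called genes numbered 1792 (1285 higher, 507 lower). Testing every probe set gave 2793 (1945 and 848). The replicate number as a block, although only 2 pairs share a number, gave 3401 (2313 and 1088); over genes, the deviations of same-numbered arrays correlated at 0.411. Leaving out 1 array gave 0 to 97 calls, 0 to 62 of them higher and 0 to 35 lower. The other alternatives, which were a filter dropped or made stricter, probe sets averaged, quantile normalization again, median centring, an added 16, a trended prior and a fit of all 7 arrays, gave 1383 to 1991 calls. No called gene that could be tested changed sign in any alternative. Where an alternative kept a gene's probe set and values, or left out 1 array, the sign of a called gene could not change. Of genes without a call, Trav9d-3 went from 0.32 to -1.66 with probe sets averaged. Without the filter, the medians of the type 2, chemokine receptor and NK receptor lists turned negative, since their dim members then entered. The medians of the costimulatory, MAP kinase feedback, integrin, chromatin, Rgs, Egr and E protein lists, all near 0 or from few genes, also changed sign in at least 1 alternative. Signal over background limits the dim genes, whose folds are lower limits. Of 1079 called genes with further probe sets, bright ones such as Anxa2 and Rora included, 188 had one of opposite sign; the cause was not tested.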
